A study of Mus musculus with 26 samples.

Results

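Mouse mitochondrial DNA encodes 37 genes, and all of them were rows of the deposited count matrix, where their names begin with mt-. They were 13 protein genes, 2 ribosomal RNAs and 22 transfer RNAs among 56941 rows in all, and they were taken by that prefix without regard to their values. A count was present in 15 of the 37 genes, namely the 13 protein genes and both ribosomal RNAs, and all 15 passed the filter on low counts. The counts came from left ventricle tissue of 26 mice, a bulk sample in which fewer cells of a type and less RNA per cell cannot be told apart. Both alleles of Ppp2r2a were floxed (L/L) in every mouse. This gene encodes B55α, which directs the phosphatase PP2A to its substrates. Every mouse was 12 to 16 weeks old and had received saline from an osmotic minipump for 2 weeks.

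The conditional knockout mice (cKO) also carried an aMHC-Cre transgene, which drives Cre in cardiomyocytes and leaves Ppp2r2a in the other cells of the ventricle. The floxed control mice (Ctrl) had no Cre. The Ctrl groups held 6 males and 6 females and the cKO groups 7 males and 7 females, with 1 library to a mouse. The labels give the strain as C57BL/6N, while the design text describes a mixed background with an FVB Cre line. Whether the genotypes also differ in FVB sequence was not tested, and mice carrying Cre alone were not analysed here. The series title asks about sex-specific effects, so the mitochondrial genes were compared between genotypes within each sex and between the sexes within each genotype.

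Total counts per library ranged from 14403102 to 30867399. Ppp2r2a was between 24.1 and 47.7 CPM (counts per 1e6 counts) in Ctrl males (median 42.2) and between 11.8 and 16.2 in cKO males (median 13.9). In females it was between 36.2 and 46.7 CPM in Ctrl mice (median 40.2) and between 9.96 and 16.2 in cKO mice (median 13.7). The genotypes did not overlap in either sex, and the log2 fold changes were -1.40 in males and -1.58 in females (edgeR quasi-likelihood test, Benjamini-Hochberg adjusted p = 1.86e-06 and 1.9e-07). All 8 cardiomyocyte markers were present in every group, with a summed level of 60860 to 78397 CPM. The 3 atrial markers summed to 2.29 CPM or less, so the markers did not go against the ventricle label.

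Mitochondrial genes are transcribed as long precursors from both strands of a small circular genome. The transfer RNAs sit between most of the other genes and are cut out of the precursors, which frees the messages and ribosomal RNAs. All 13 messages encode subunits of the respiratory chain or of ATP synthase, and the remaining subunits of those complexes come from nuclear genes. The heart is among the tissues richest in mitochondria, and cardiomyocytes hold most of them.

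Several mitochondrial genes have near-identical copies in the nuclear genome, and this bears on how their counts can be read. The clearest pair is mt-Nd4l, which encodes a small membrane subunit of complex I, and its unprocessed pseudogene Gm10222 on chromosome 1. Both are printed 5′ to 3′ from the GENCODE M21 transcripts (GRCm38), and the capitals mark the 3 final bases that the copy does not have. The 294 bases they share are identical.
mt-Nd4l: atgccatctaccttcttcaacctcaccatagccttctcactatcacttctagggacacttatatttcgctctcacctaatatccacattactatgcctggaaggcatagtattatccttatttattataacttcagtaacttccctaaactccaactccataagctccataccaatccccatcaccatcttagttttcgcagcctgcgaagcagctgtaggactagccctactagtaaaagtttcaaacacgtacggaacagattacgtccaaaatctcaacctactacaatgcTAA
Gm10222: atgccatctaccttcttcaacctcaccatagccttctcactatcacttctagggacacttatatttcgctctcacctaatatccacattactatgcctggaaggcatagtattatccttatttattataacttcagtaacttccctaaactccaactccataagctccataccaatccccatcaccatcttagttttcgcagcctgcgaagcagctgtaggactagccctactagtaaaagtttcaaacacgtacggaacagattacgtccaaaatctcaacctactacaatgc

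A second pair, mt-Nd3 and Gm28438, is shown because it differs inside the gene as well. The first 200 bases of each are printed, and the capital marks the only mismatch over the 345 bases that align. mt-Nd3 is 348 bases long and the copy 345. Within the 345 aligned bases, a read that does not cross that base matches both transcripts alike. Sequence beyond the transcripts was not compared. mt-Nd3 encodes another small membrane subunit of complex I.
mt-Nd3: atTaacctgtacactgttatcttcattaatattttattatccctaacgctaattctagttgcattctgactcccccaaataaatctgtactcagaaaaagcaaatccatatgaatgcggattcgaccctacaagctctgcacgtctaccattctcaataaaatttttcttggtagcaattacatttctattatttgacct
Gm28438: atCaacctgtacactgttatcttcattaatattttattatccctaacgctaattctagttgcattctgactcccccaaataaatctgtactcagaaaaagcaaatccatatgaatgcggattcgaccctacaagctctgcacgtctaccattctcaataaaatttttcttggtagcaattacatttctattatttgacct

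mt-Nd3 lies between the genes for glycine and arginine transfer RNAs, which are printed to show the size of the genes that separate the messages. Each is 68 bases long, less than the 75-base words used below to compare transcripts.
mt-Tg: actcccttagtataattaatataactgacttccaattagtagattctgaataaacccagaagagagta
mt-Tr: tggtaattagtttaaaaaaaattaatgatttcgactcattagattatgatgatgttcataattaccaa

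All 22 transfer RNA genes were at 0 in all 26 libraries. A count of 0 allows a level of up to 0.0972 CPM in the deepest library and 0.208 CPM in the shallowest, taking 3 counts as the limit. These limits hold for each library by itself, and a joint limit over all 26 was not computed. The libraries were made with poly-A selection, and mature transfer RNAs do not carry poly-A tails. Whether the library method or the counting set these zeros was not tested.

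The 15 counted genes differed widely in level. Levels are compared here as CPM per kilobase of transcript, with the range over all 26 libraries. mt-Co1, the catalytic subunit of complex IV (cytochrome c oxidase), was at 48924 CPM per kilobase on average (39683 to 54267) and was the most abundant gene in every library. mt-Cytb, the cytochrome b of complex III, followed at 25340 (20917 to 29380), and mt-Nd1, a complex I subunit beside the quinone site, at 24843 (18162 to 29948). The ranges of mt-Cytb and mt-Nd1 overlapped almost wholly, so their order is not fixed.

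The 3 antiporter-like subunits of complex I came next. mt-Nd2 was at 13215 CPM per kilobase (8807 to 16227), mt-Nd4 at 10354 (8186 to 11293) and mt-Nd5 at 5130 (3921 to 6032). The ranges of mt-Nd2 and mt-Nd4 overlapped, whereas mt-Nd5 lay below mt-Nd4 in every library. mt-Co2, the complex IV subunit that takes electrons from cytochrome c, was at 2708 CPM per kilobase (1734 to 3344), and mt-Co3, the remaining mitochondrial subunit of that complex, at 1689 (783.7 to 2340). The ribosomal RNAs lay in the same span, mt-Rnr2 (the large-subunit RNA) at 1967 (1339 to 3221) and mt-Rnr1 (the small-subunit RNA) at 1936 (1361 to 3184).

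The lowest messages were the short ones. mt-Atp6, which forms the proton channel of ATP synthase, was at 1466 CPM per kilobase (518 to 1905), and mt-Atp8, a small subunit of the same enzyme, at 752.4 (147.6 to 1265). mt-Nd3 was at 460.5 (167 to 664.5) and mt-Nd4l at 410 (131.9 to 517.4). mt-Nd6, a complex I subunit and the only one of the 13 messages read from the light strand, was lowest at 166 (108.6 to 262.4). From mt-Co2 down to mt-Nd6, each gene's range overlapped that of the next in the order.

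**Figure D1:**
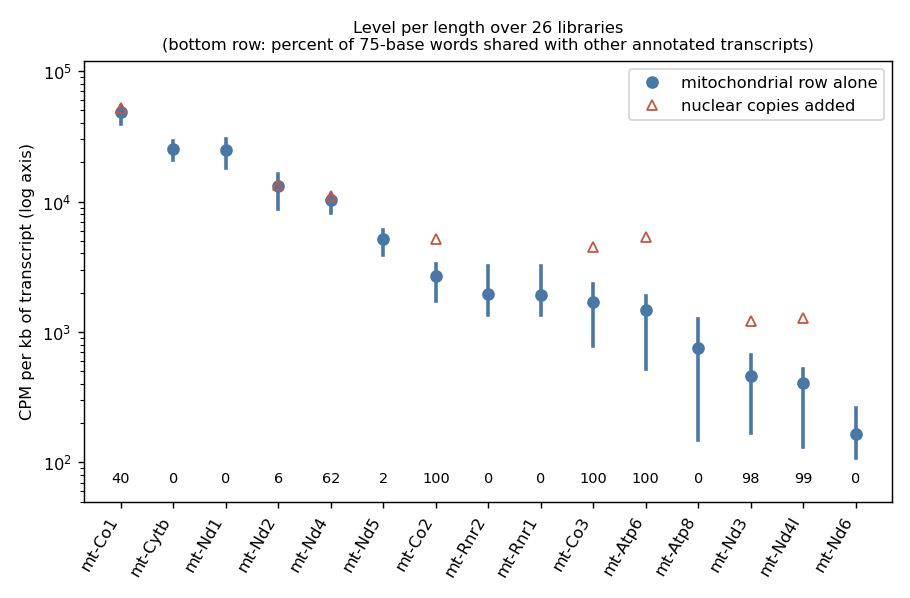
Level of the 15 counted mitochondrial genes as CPM per kilobase of transcript on a log axis, in order of level. Filled points are means over 26 libraries and lines run from the lowest to the highest library. Open triangles are means with the counts of the nuclear copies added, and the bottom row gives the percent of 75-base words shared with other annotated transcripts. The gap between point and triangle is widest for mt-Atp6 and mt-Nd4l, which share 99.5% and 98.7% of their words.

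To see which rows could have lost reads, each transcript was compared with all other annotated transcripts by its 75-base words. The share of words found elsewhere was 99.9% for mt-Co3, 99.5% for mt-Co2 and mt-Atp6, 98.7% for mt-Nd4l and 97.8% for mt-Nd3. It was 61.5% for mt-Nd4, 39.8% for mt-Co1, 5.71% for mt-Nd2, 1.66% for mt-Nd5 and 0 for the other 6 counted genes. So the 5 messages with nearly all words shared all stood below the 6 most abundant ones, while mt-Cytb and mt-Nd1 shared none. mt-Atp8 and mt-Nd6 were also low and shared none. The search covered annotated transcripts only, so copies outside the annotation would not have been found.

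The nuclear copies themselves held many counts. The 10 copies compared, 7 on chromosome 1 and 3 on chromosome 2, took 1.24% of a library on average (0.788% to 1.501%). Of the counts of a gene and its copies together, the copies held 72.7% for mt-Atp6, 68.2% for mt-Nd4l, 62.6% for mt-Co3, 62.2% for mt-Nd3 and 47.3% for mt-Co2. For mt-Co1, mt-Nd4 and mt-Nd2 they held 5.50%, 5.34% and 0.677%. For mt-Atp6, mt-Nd4l, mt-Co3 and mt-Nd3 the nuclear row thus held more counts than the mitochondrial one. How the authors' counting placed reads that match both places is not given in the sources used here, and how many of the copies' counts are mitochondrial RNA was not tested.

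Adding the copies changed the order of levels. On the scale of CPM per kilobase, mt-Atp6 rose from 1466 to 5361, mt-Co2 from 2708 to 5134 and mt-Co3 from 1689 to 4494. These 3 messages then stood beside mt-Nd5 at 5130 and above both ribosomal RNAs. mt-Nd4l and mt-Nd3 came to 1287 and 1218, above mt-Atp8. The 3 most abundant messages kept their places.

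Annotated genes also overlap on the mitochondrial genome itself. mt-Atp8 and mt-Atp6 share 43 bases, mt-Nd4l and mt-Nd4 share 7, and mt-Nd5 and mt-Nd6 share 14 on opposite strands. Because mt-Atp8 is 204 bases long, its own count is the most exposed to this overlap. The strand setting of the counting is not given in the sources used here, so the count of mt-Nd6 is uncertain where mt-Nd5 lies opposite. There were 0.922 counts of mt-Nd6 per 100 counts of mt-Nd5 (0.624 to 1.43 over the libraries).

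As a share of the whole library, mitochondrial genes took 15.05% to 19.25% of the counts in Ctrl males (median 17.8%) and 16.6% to 18.94% in cKO males (median 18.55%). In females the share was 17.04% to 18.31% in Ctrl mice (median 17.29%) and 13.79% to 18.37% in cKO mice (median 16.93%). All 4 groups overlapped. The means (± SD) were 17.6% ± 1.45 over the 6 Ctrl and 18.3% ± 0.83 over the 7 cKO males. They were 17.5% ± 0.501 over the 6 Ctrl and 16.7% ± 1.53 over the 7 cKO females. The share is a sum over the genes and was described without a test.

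The cKO mean was above the Ctrl mean by 0.664 percentage points in males and below it, with a difference of -0.772 points, in females, both smaller than 1 SD of the more variable group. The largest difference was between the sexes in cKO mice, where the female mean differed from the male by -1.571 points, more than 1 SD of the cKO females (1.53), and lay between -1.854 and -1.083 with any 1 mouse left out. It was -0.809 without the 3 libraries described below as low (Ctrl male 4, cKO females 1 and 7). Leaving out cKO females picked as low by itself makes this difference smaller. Both genotype differences leaned on single low libraries. Without Ctrl male 4 the male difference was 0.147 points, and without cKO female 1 the female difference was -0.284 points. The summed cardiomyocyte markers were 66734 to 70887 CPM in Ctrl males and 60860 to 68360 in cKO males, and 68007 to 78397 in Ctrl females and 66384 to 74558 in cKO females. The summed fibroblast markers were 665.7 to 1026 CPM in Ctrl males and 802.6 to 1133 in cKO males, and 638.1 to 895.5 in Ctrl females and 719.9 to 982.5 in cKO females. Each of these ranges overlapped between the genotypes, and the part of cell makeup in the mitochondrial share was not tested.

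**Figure D2:**
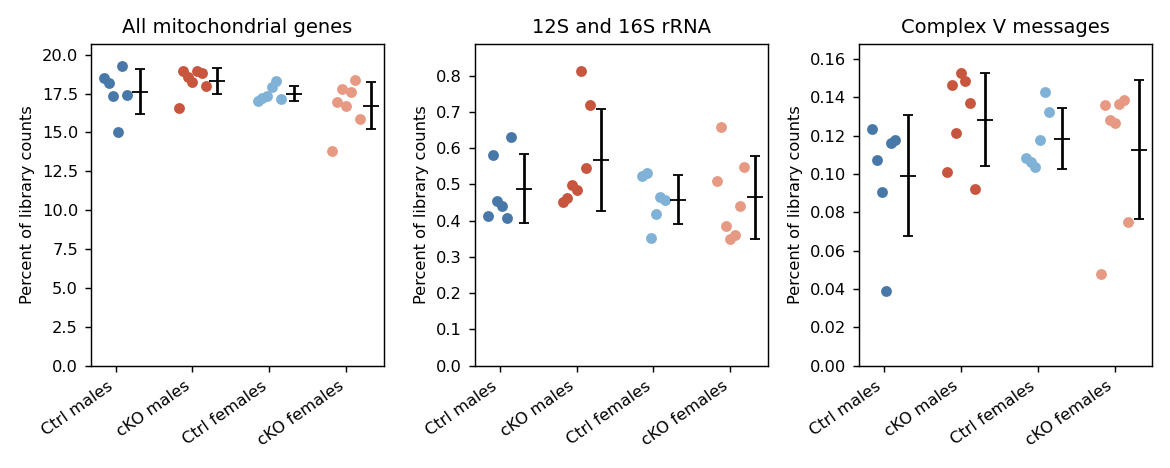
Percent of library counts in all mitochondrial genes, in both ribosomal RNAs and in the complex V messages (mt-Atp8 and mt-Atp6), each point a mouse. Bars show each group's mean and SD (6 mice in each Ctrl and 7 in each cKO group), and all axes start at 0. The groups overlap in all 3 panels, and Ctrl male 4 and cKO female 1 lie lowest for all genes and for complex V.

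Within the mitochondrial counts, complex IV messages made up 44.9% (43.0% to 46.7% over 26 libraries) and complex I messages 35.02% (32.7% to 37.5%). mt-Cytb, the only complex III message, made up 16.6% (14.8% to 18.4%). The complex V messages made up 0.650% (0.258% to 0.838%) and the ribosomal RNAs 2.84% (2.02% to 4.30%). The large classes thus stayed within narrow bounds, while complex V and the ribosomal RNAs varied more than 2-fold between libraries. mt-Co1 alone made up 43.1% of the mitochondrial counts.

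The share of mt-Cytb among the mitochondrial counts was 15.9% to 18.4% of the mitochondrial counts in Ctrl males (mean 16.9%) and 14.8% to 16.6% in cKO males (mean 15.6%), so the ranges overlapped in part. In Ctrl and cKO females the means were 16.9% and 17.0%. The complex V messages averaged 0.553% of the mitochondrial counts in Ctrl males, against 0.6997% in cKO males, 0.6766% in Ctrl females and 0.6617% in cKO females. Both shares were singled out after their values were seen and are given as a description. The CPM of mt-Cytb itself was not called in any comparison.

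The ribosomal RNAs took 0.408% to 0.632% of the library in Ctrl males (median 0.448%) and 0.452% to 0.814% in cKO males (median 0.497%). In females they took 0.352% to 0.530% in Ctrl mice (median 0.461%) and 0.348% to 0.658% in cKO mice (median 0.441%). The groups overlapped, and the highest values belonged to cKO males 5 and 7. The 2 RNAs moved together, with 147.8 to 193.5 counts of mt-Rnr2 per 100 counts of mt-Rnr1. Since ribosomal RNA is mostly removed by poly-A selection, these values describe what remained in the libraries and not the amount of ribosomal RNA in the tissue.

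On CPM from raw library totals, the mitochondrial genes ranged from steadier than most genes of the ventricle to among the most variable. The SD between mice of a group was pooled over the 4 groups on the log2 scale. It was 0.09 for mt-Co1 and 0.10 for mt-Cytb and mt-Nd4. For mt-Nd1, mt-Nd2 and mt-Nd5 it was 0.14, 0.18 and 0.17. The median was 0.17 over 13269 genes with a mean of at least 1 CPM. Mitochondrial genes are themselves a large part of the raw totals, and SDs under other scalings were not ranked. The SDs were also not compared among genes of like level. The SD was 0.81 for mt-Atp8, 0.53 for mt-Nd3, 0.48 for mt-Nd4l, 0.43 for mt-Atp6 and 0.37 for mt-Co3. Of all genes compared, 99.3% had a smaller SD than mt-Atp8 and 12.4% a smaller one than mt-Co1. The most abundant messages were therefore measured with far less spread than these 5.

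The 5 messages of largest SD were low together in a few libraries. The mean deviation of mt-Atp8, mt-Atp6, mt-Co3, mt-Nd3 and mt-Nd4l from their group mean was -1.32 on the log2 scale in Ctrl male 4, -1.37 in cKO female 1, -0.65 in cKO female 7 and -0.55 in cKO male 7. In Ctrl male 4, mt-Atp8 was at 33.8 CPM against 97.1 to 186.7 in the other Ctrl males. In cKO female 1 it was at 28.6 CPM, and in cKO female 7 at 48.7, against 168.7 to 211 in the other cKO females. mt-Atp6, mt-Co3, mt-Nd3 and mt-Nd4l share nearly all words with nuclear copies, whereas mt-Atp8 shares none with annotated transcripts. The copies were also lowest of their groups in Ctrl male 4 and in cKO females 1 and 7. Gm10925, the copy of mt-Atp6, was at 1404 CPM in Ctrl male 4 against 2159 to 3006 in the other Ctrl males. It was at 1334 and 1866 CPM in those cKO females, against 2800 to 3153 in the others. The part of shared reads was not tested. The 5 messages were grouped after their values were seen, and the part of message length was not tested. mt-Nd6, shorter than mt-Atp6 and mt-Co3, had the next largest SD (0.35) among the messages. It was at 65.0 CPM in Ctrl male 4 against 66.8 to 98.5 in the other Ctrl males. In cKO females 1 and 7 it was at 56.7 and 62.0 CPM, against 70.9 to 130.6 in the others. mt-Co2, close to mt-Atp6 in length, was at 1132 CPM in Ctrl male 4 against 1587 to 2038. In those cKO females mt-Co2 was at 1248 and 1462 CPM, against 1818 to 2305.

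The 6 most abundant messages were lower in the same libraries by less. The mean deviation of mt-Nd1, mt-Nd2, mt-Co1, mt-Nd4, mt-Nd5 and mt-Cytb was -0.30 in Ctrl male 4, -0.37 in cKO female 1 and -0.13 in cKO female 7. Short nuclear transcripts were not low there. For the 1273 nuclear genes whose longest annotated transcript is under 1000 bases, the median deviation was 0.06, -0.03 and -0.002 in these 3 libraries. The ribosomal RNAs deviated by -0.18, 0.12 and 0.26, with no common direction. The counts of mt-Nd4l fell relative to its neighbour mt-Nd4 to 0.306, 0.389 and 0.607 per 100 counts in these libraries, against a median of 0.892 over all libraries.

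**Figure D3:**
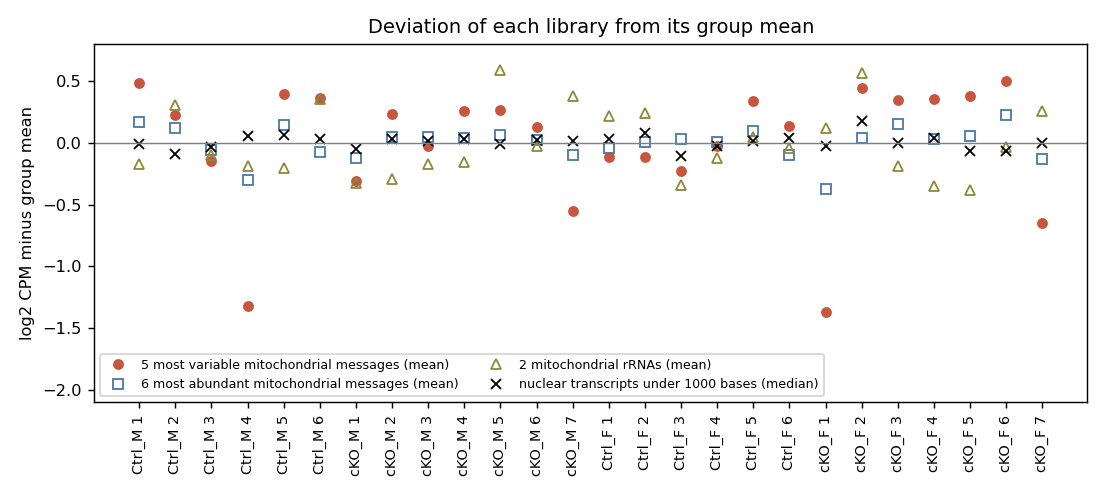
Deviation of each of the 26 libraries from its group mean, in log2 CPM. Points are the mean of the 5 mitochondrial messages of largest SD, squares the mean of the 6 most abundant ones, and triangles the mean of both ribosomal RNAs. Crosses are the median of 1273 nuclear genes whose longest annotated transcript is under 1000 bases. Ctrl male 4 (-1.32) and cKO female 1 (-1.37) lie lowest for those 5 messages, while their crosses stay near 0.

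The genotype effect on the mitochondrial genes was tested first in males. None of the 15 genes was called between cKO and Ctrl males by the edgeR quasi-likelihood test at a Benjamini-Hochberg adjusted p under 0.05, against 0.443% of the 15357 genes tested. None reached an unadjusted p under 0.05 either, and DESeq2 and limma voom also called 0. Of the 15 genes, 12 had a positive and 3 a negative log2 fold change, with a median of 0.16 against 0.00 for all genes tested. Every 95% interval included 0.

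mt-Nd6 (ENSMUSG00000064368) had the smallest p in males. It was at 65.0 to 98.5 CPM in Ctrl males (median 77.9) and 75.5 to 114.9 in cKO males (median 102.1). The groups overlapped, and the log2 fold change was 0.30 (95% interval -0.11 to 0.71, SE 0.20, adjusted p = 0.543 by edgeR). mt-Nd5 (ENSMUSG00000064367), the gene on the opposite strand beside it, was at 7390 to 11332 CPM in Ctrl males (median 8997) and 7905 to 10887 in cKO males (median 10284). Its log2 fold change was 0.15 (95% interval -0.06 to 0.36, SE 0.10, adjusted p = 0.547 by edgeR).

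The other complex I messages in males ranged from a log2 fold change of -0.01 for mt-Nd1 to 0.37 for mt-Nd3, with 0.11 for mt-Nd2, -0.00 for mt-Nd4 and 0.28 for mt-Nd4l. In complex III, mt-Cytb was at -0.09 (95% interval -0.22 to 0.04), and in complex IV mt-Co1, mt-Co2 and mt-Co3 were at 0.04, 0.14 and 0.16. The precision differed sharply among them. For mt-Co1 the 95% interval ran from -0.09 to 0.17, whereas for mt-Atp8, at 0.54, it ran from -0.31 to 1.39. mt-Atp6 was at 0.31 (95% interval -0.16 to 0.78) and the ribosomal RNAs at 0.20 (mt-Rnr1) and 0.19 (mt-Rnr2).

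In females none of the 15 genes was called by the edgeR test, against 0.0326% of all genes tested, and DESeq2 and voom called 0 as well. One gene, mt-Co1 (ENSMUSG00000064351), had an unadjusted p under 0.05. It was at 72609 to 81262 CPM in Ctrl females (median 75976) and 58146 to 77405 in cKO females (median 70978). The groups overlapped, with 5 of 7 cKO females below the lowest Ctrl female, and the log2 fold change was -0.13 (95% interval -0.26 to -0.002, SE 0.06, adjusted p = 0.948 by edgeR). Without cKO female 1 it was -0.09.

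The other genes leaned the same way in females without reaching an unadjusted p under 0.05. Of the 15 genes, 14 had a negative log2 fold change and 1, mt-Nd6, a positive one (0.12), with a median of -0.06 against 0.00 for all genes tested. mt-Cytb (ENSMUSG00000064370) was at 28481 to 31519 CPM in Ctrl females (median 30658) and 22694 to 31688 in cKO females (median 28962). These ranges overlapped, and the log2 fold change was -0.10 (adjusted p = 0.965 by edgeR, SE 0.07). mt-Nd4l had the lowest value at -0.19 (95% interval -0.69 to 0.32), and mt-Atp8 and mt-Atp6 were at -0.05 and -0.12. When the 3 libraries lowest in the 5 variable messages (Ctrl male 4, cKO females 1 and 7) were left out, a choice made after seeing the data, 9 genes were positive and 6 negative in females, with 0 called. The next lowest library, cKO male 7, was close to cKO female 7, and without all 4 the counts in females were again 9 and 6. Both choices left out cKO females picked for low messages, which by itself raises the female fold changes. Neither choice can therefore test their sign.

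**Figure D4:**
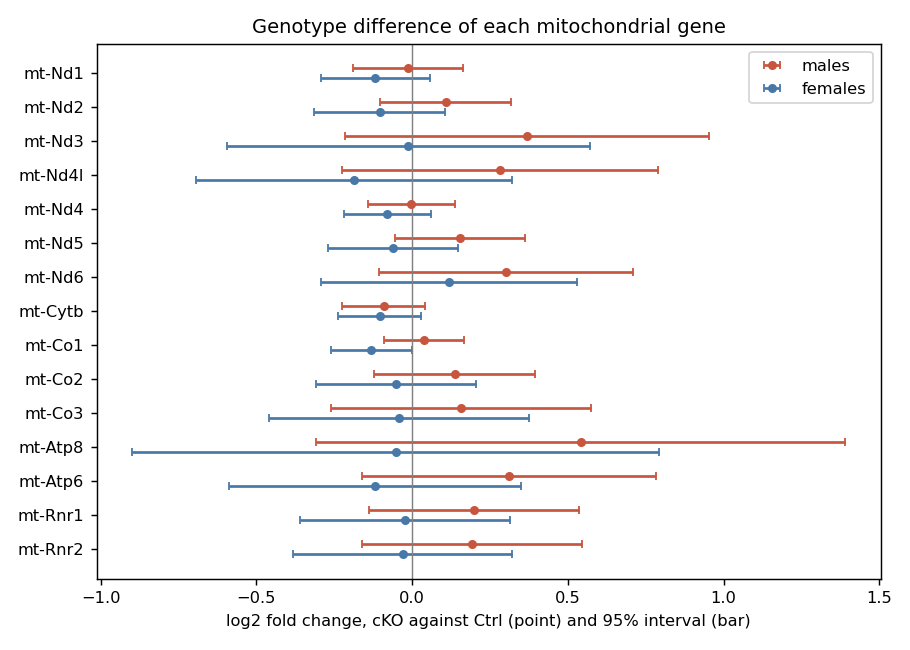
Log2 fold change of each of the 15 counted mitochondrial genes between cKO and Ctrl mice, with its 95% interval, in males and in females. The intervals are narrow for mt-Co1, mt-Cytb and mt-Nd4 and wide for mt-Atp8, mt-Nd3 and mt-Nd4l. Each interval includes 0 except that of mt-Co1 in females, which ends at -0.002.

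The difference between the sexes in the genotype effect was then tested. It was negative, that is lower in females, for all 15 genes, with a median of -0.21, yet none was called by the edgeR test (0% of all genes tested) and none had an unadjusted p under 0.05. DESeq2 and voom called 0 too. The 15 genes come from shared precursors and were measured in the same libraries. Their signs, here and in the other comparisons, are therefore not separate observations. The value with the smallest p was that of mt-Co1, at -0.17 (adjusted p = 0.999 by edgeR, SE 0.09). Without the 3 low libraries, 7 genes were positive and 8 negative, and the median was -0.03. Without all 4, 6 were positive and 9 negative, with a median of -0.04. The common sign over the 15 genes was not kept when those libraries were left out. They were picked for low mitochondrial messages, and the 3 were a Ctrl male and cKO females. Leaving these out by itself raises the difference for the messages low in them. The loss of the common sign was thus partly built into the choice, and it cannot show whether that sign is robust.

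Averaged over both sexes, the genotype effect was positive for 11 genes and negative for 4, with a median of 0.05 and 0 called, against 1.33% of all genes tested (edgeR, and 0 by DESeq2 and voom). mt-Cytb alone had an unadjusted p under 0.05, at -0.10 (95% interval -0.19 to -0.003, SE 0.05, adjusted p = 0.332 by edgeR). mt-Nd6 came second at 0.21 (adjusted p = 0.554 by edgeR, SE 0.14). For mt-Co1, mt-Nd4 and mt-Cytb, the steadiest mitochondrial genes, the 95% intervals of the mean effect lay within 0.20 of 0 on the log2 scale. For mt-Atp8 the interval ran from -0.35 to 0.84. Without the 3 low libraries, 11 genes were positive and 4 negative, with 0 at an unadjusted p under 0.05. Without all 4, 10 were positive and 5 negative, with 3 at an unadjusted p under 0.05. In both, 0 were called.

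Between the sexes, none of the 15 genes was called in Ctrl mice by the edgeR test (0.638% of all genes tested), with 0 at an unadjusted p under 0.05 and 0 by DESeq2 and voom. mt-Co2 (ENSMUSG00000064354) had the smallest p there. It was at 1132 to 2038 CPM in Ctrl males (median 1803) and 1751 to 2232 in Ctrl females (median 1866), with a log2 difference, female minus male, of 0.15 (adjusted p = 0.702 by edgeR, SE 0.13). mt-Atp6 (ENSMUSG00000064357) was at 336.7 to 1112 CPM in Ctrl males (median 984.4) and 956.2 to 1251 in Ctrl females (median 1014), a log2 difference of 0.26 (adjusted p = 0.725 by edgeR, SE 0.24). Without Ctrl male 4 these differences were 0.06 and 0.10. Both genes overlapped between the sexes.

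In cKO mice the female values were lower for 14 of the 15 genes, with a median log2 difference of -0.17 against 0.01 for all genes. None was called by the edgeR test, against 2.7% of all genes tested, nor by DESeq2 or voom, and 2 had an unadjusted p under 0.05, as did 17.3% of all genes. mt-Co1 was at 70487 to 83115 CPM in cKO males (median 80321) and 58146 to 77405 in cKO females (median 70978), a log2 difference of -0.17 (95% interval -0.30 to -0.05, SE 0.06, adjusted p = 0.112 by edgeR). mt-Nd2 (ENSMUSG00000064345) was at 12572 to 16260 CPM in cKO males (median 15164) and 8670 to 16521 in cKO females (median 12774), a log2 difference of -0.25 (adjusted p = 0.176 by edgeR, SE 0.10). The sexes overlapped in both. Without the 3 low libraries, 7 genes were higher and 8 lower in females, with 3 at an unadjusted p under 0.05 and 0 called. Without all 4, 6 were higher and 9 lower, with 1 at an unadjusted p under 0.05 and 0 called. Leaving out cKO females picked for low messages by itself raises the female values, so these counts cannot test the direction.

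The nuclear genes that serve mitochondrial transcription and assembly were read from the same fit, in lists drawn up with earlier results of these data known. Of 37 complex I nuclear subunits, 37 had a negative log2 fold change in cKO males (median -0.15), and 3 fell at an edgeR adjusted p under 0.05, against 0.26% of all genes tested called lower. The counts were 9 of 9 negative with 0 called for complex III (median -0.14), 14 of 14 with 0 called for complex IV (median -0.17) and 18 of 18 with 2 called for complex V (median -0.16). An unadjusted p under 0.05 was seen for 9 genes of complex III and 12 of complex IV, against 13.2% of all genes tested. The mitochondrial subunits of the same complexes, described above, were mostly positive in males, but no test compared the nuclear with the mitochondrial subunits.

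The called subunits in males were Ndufa9, Ndufb9 and Ndufb10 of complex I and Atp5o and Atp5c1 of complex V. Atp5o, a stalk subunit of ATP synthase, was at 777.1 to 866.3 CPM in Ctrl males (median 813) and 665.6 to 734.2 in cKO males (median 694.2). The groups did not overlap, and the log2 fold change was -0.22 (adjusted p = 0.0238 by edgeR, SE 0.04). Ndufa9 was at 505.9 to 547.4 CPM in Ctrl males (median 529) and 436 to 484.8 in cKO males (median 468.7), again without overlap, a log2 fold change of -0.18 (adjusted p = 0.0296 by edgeR, SE 0.04). Ndufb9, Ndufb10 and Atp5c1 fell by 0.21, 0.21 and 0.20 on the log2 scale.

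Factors that act directly on mitochondrial DNA and RNA were also examined. Of 18 factors for transcription, replication and the nucleoid, 17 were negative in cKO males (median -0.15) and 1 was called, against 0.26% of all genes tested called lower. Of 32 factors for RNA processing and stability, 29 were negative (median -0.07) and 0 were called by edgeR, with 6 at an unadjusted p under 0.05, where 13.2% of all genes tested were. Tfb1m belongs to both lists. The called factor was Mterf2, a member of the mitochondrial termination factor family, at 22.03 to 25.4 CPM in Ctrl males (median 23.1) and 16.8 to 21.1 in cKO males (median 19.1). The groups did not overlap, and the log2 fold change was -0.29 (adjusted p = 0.0415 by edgeR, SE 0.06). Polrmt, the mitochondrial RNA polymerase, was at -0.01 (edgeR adjusted p = 0.988) and Tfam, which packages and helps transcribe mitochondrial DNA, at -0.15 (edgeR adjusted p = 0.265).

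The 6 nuclear calls in males depended on the libraries and on the tool. They were 0 without Ctrl male 5 or cKO male 5, 1 without any of Ctrl males 1 and 4 and cKO males 1, 2 and 6, and 3 without any of Ctrl males 2 and 3 and cKO male 3. They were 13 without Ctrl female 6 or cKO female 2, which enter only through the shared estimate of spread. They were 0 without Ctrl males 3 and 6 together (both low in Ppp2r2a), 0 without the 3 or the 4 libraries low in the variable messages, 1 with an offset for transcript length, 17 with voom and 34 with DESeq2. The cardiomyocyte marker sum was also lower in cKO males (median 63768 CPM against 69147) and the fibroblast marker sum higher (median 947.8 against 828). Ryr2 and Ttn, alone of the cardiomyocyte markers, had higher means in cKO males (1231 against 1185 CPM and 4004 against 3759). The part of cell makeup in these differences was not tested.

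In females 36 of 37, 9 of 9, 14 of 14 and 17 of 18 nuclear subunits of complexes I, III, IV and V were negative, with medians of -0.07, -0.09, -0.06 and -0.06. None of them, and none of the factors, was called by edgeR (0.00651% of all genes tested called lower), DESeq2 or voom, while 9, 3, 1 and 6 subunits had an unadjusted p under 0.05, against 5.15% of all genes tested. For the mean effect over both sexes, 37 of 37, 9 of 9, 14 of 14 and 17 of 18 subunits of these complexes were negative. Of these, 11, 2, 2 and 5 were called lower at an edgeR adjusted p under 0.05, against 0.866% of all genes tested. Also called lower was Hsd17b10, a component of the enzyme that cuts the 5′ ends of mitochondrial transfer RNAs. Hsd17b10 was at 124.3 to 136 CPM in Ctrl males and 104.1 to 120.5 in cKO males, and at 127 to 164.1 in Ctrl females and 119.2 to 142.1 in cKO females. Its mean log2 effect was -0.16 (adjusted p = 0.0308 by edgeR, SE 0.04). The 21 calls of the mean effect came down to 6 without Ctrl male 5, to 9 to 13 without any of Ctrl male 1, cKO male 1, Ctrl females 1 and 4 and cKO female 5, and to 4 without the 3 or the 4 low libraries.

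Among the subunits called for the mean effect were Ndufs8, an iron-sulfur subunit of complex I, at -0.18, Uqcrc1, a core subunit of complex III, at -0.14, and Cox7a1, the heart and muscle form of a complex IV subunit, at -0.20. The mitochondrial members of the same complexes had mean effects of -0.07 for mt-Nd1, -0.10 for mt-Cytb and -0.05 for mt-Co1, while mt-Nd6 was at 0.21, mt-Nd3 at 0.18, mt-Nd5 and mt-Nd4l at 0.05, mt-Co3 at 0.06 and mt-Co2 at 0.04. None of them was called. Between the sexes in cKO mice, where 14 of the 15 mitochondrial genes were lower in females, 6, 1, 8 and 4 nuclear subunits of complexes I, III, IV and V were higher in females at an edgeR adjusted p under 0.05, against 1.43% of all genes tested called higher. Among them were Atp5e at 0.31, Cox7a2 at 0.27 and Ndufb11 at 0.25 on the log2 scale. The cKO males here are those of the genotype comparison in males, so the 2 comparisons share libraries. Over all nuclear lists 21 genes were called between the sexes in cKO mice, 11 without the 3 low libraries and 5 without all 4. They were 7 to 13 without any of cKO males 1, 2, 6 and 7 and cKO females 2, 4 and 7. The cardiomyocyte marker sum was also higher in cKO females (median 69042 CPM against 63768 in cKO males). Ryr2 and Ttn, alone of these markers, had lower means in cKO females (1097 against 1231 CPM and 3624 against 4004). The part of cell makeup in these differences was not tested. The difference of the genotype effects between the sexes was called for none of these nuclear genes by edgeR, DESeq2 or voom, and 1 complex I subunit, 2 complex V subunits and 2 transcription and replication factors had an unadjusted p under 0.05, against 3.96% of all genes tested.

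**Figure D5:**
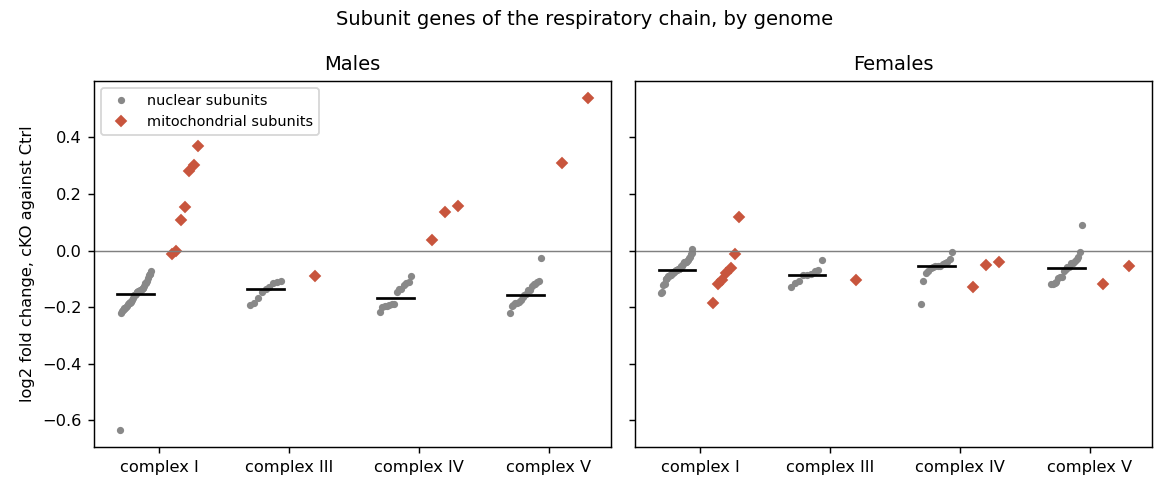
Log2 fold change between cKO and Ctrl mice for nuclear subunits (grey points, black line at the median) and mitochondrial subunits (diamonds) of complexes I, III, IV and V, in males and in females. In males the nuclear medians lie between -0.17 and -0.14, and the mitochondrial subunits run from -0.09 (mt-Cytb) to 0.54 (mt-Atp8). In females both sets lie mostly just below 0.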

How the data were processed

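RNA was extracted from about 20 mg of left ventricle per mouse (RNA integrity number at least 7.7), and stranded libraries were made from 500 ng with poly-A selection, per the labels' protocols. The authors deposited unnormalized whole-number counts per gene for all 26 libraries in 1 matrix with Ensembl IDs and names. Per the submitters' processing notes the tools were FastQC 0.74, cutadapt 4.6, STAR 2.7.11a and HTSeq, with the GRCm39 build, and the annotation release, the strand setting and the treatment of reads that match several places are not given in the sources used here. Such settings decide how mitochondrial reads are shared with nuclear copies.

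Groups follow the genotype and sex in the labels. A chi-square test of counts over genes for each of the 72 pairs of same-group libraries gave 7.19 to 33.4 per degree of freedom, so no pair differed by as little as sampling noise. Counts were fitted in R 4.3.3 with edgeR 4.0.16 (filterByExpr with a minimum count of 10, TMM, robust quasi-likelihood, 1 mean per group over all 26 libraries, no block). Of 56941 rows, 15357 were tested, with Benjamini-Hochberg adjustment across these and calls at an adjusted p under 0.05. Log2 CPM used a prior count of 2, and CPM used TMM-scaled totals, apart from the following. Shares, CPM per kilobase, marker sums and the SDs between mice used raw totals. For those SDs 0.1 CPM was added before the log. Intervals are 95% and come from the quasi-likelihood F statistic. The lowest count of a tested mitochondrial gene in any library was 581 (mt-Atp8), and the limit of 3 counts used for zeros covers counting error only.

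Transcript lengths, words of 75 bases and the sequences came from GENCODE M21 on GRCm38, matched by gene ID, and no coordinates are given because that build differs from the authors'. The fit was tested on simulated data. Alternatives were DESeq2 1.42.0 (its size factors and its Wald test), limma 3.58.1 voom, other scalings and filters, the replicate block, 2-group fits, a threshold of 0.01 and each mouse left out. Those chosen after seeing the data added the nuclear copies, left out 3 or 4 libraries, or used an offset for transcript length (a spline with 4 degrees of freedom).

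The text gives full statistics for the 2 mitochondrial genes of smallest p in each genotype and sex comparison, and names from the nuclear lists those called in males or for the mean effect. Not all of the latter are named. Polrmt, Tfam and the subunits named for the sexes in cKO mice were picked outside that rule. The genes and lists were chosen with earlier results of these data known. Each library is labelled as a separate mouse, so p values measure the spread between mice, and litters or batches are not given in the sources used here.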

Additional observations from a re-analysis of the deposited data

Results flagged for a closer look

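In each group the highest and lowest mouse was set against the rest for the shares of the library and for the CPM of each counted gene, and a mouse was picked out where its gap to the next exceeded the 95% critical value of Dixon's test. Of 96 group checks, 9 did so, and chance alone picks about 1 in 20 of separate checks. These checks were not separate, since sums and their own members were both included, so the count cannot show an excess.

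In cKO males, mouse 1 was low for the share of the library in all mitochondrial genes (16.6%, the next being 18.02%), for the complex IV messages (7.413% of the library, the next 8.276%) and for mt-Nd1, a complex I subunit (21907 CPM, the next 24188). Mouse 7 of the same group was low for 2 other complex I messages, mt-Nd5 (7905 CPM, the next 10068) and mt-Nd4l (108.6 CPM, the next 132.7).

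In Ctrl females, mouse 5 was high for the complex I messages together (6.501% of the library, the next 6.135%), for mt-Nd1 (26228 CPM, the next 24255) and for mt-Nd2 (16151 CPM, the next 13460). In Ctrl males, mouse 4 was low for the complex IV messages (6.693% of the library, the next 7.923%). No mouse of the cKO females was picked out, although mouse 1 had the lowest mitochondrial share of all libraries (13.79%).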

How the results depend on the processing

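No mitochondrial gene was called in any of the 6 comparisons under any alternative run, nor with any of the 26 mice left out. The mitochondrial genes given with full statistics kept the sign of their log2 fold change in these, but others did not: without the 3 low libraries the female comparison went from 1 higher and 14 lower to 9 and 6. That choice left out cKO females picked for low messages, which by itself raises the female fold changes. The nuclear calls moved more, and are given for males, for females against males in cKO mice and for the mean genotype effect, where the reported fit called 6, 21 and 21. Total counts without TMM gave 2 calls in males and 5 for the mean effect, the DESeq2 Wald test 34, 34 and 41, voom 17 in males, no filter 1, 8 and 11, a mean of at least 5 CPM 16 in males, and an adjusted p under 0.01 gave 0, 2 and 3. Leaving out Ctrl males 3 and 6 gave 0 in males. Of the alternatives chosen after seeing the data, leaving out Ctrl male 4 and cKO females 1 and 7 gave 0, 11 and 4, leaving out cKO male 7 as well gave 0, 5 and 4, the length offset 1 in males and 9 in cKO mice, and the length offset with the replicate block 0, 6 and 12. With 1 mouse left out the counts ran from 0 (without Ctrl male 5 or cKO male 5) to 13 in males, from 7 (without cKO male 1) to 29 in cKO mice and from 6 (without Ctrl male 5) to 29 for the mean effect. The causes were not tested.

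The difference in mitochondrial share ranged, with 1 mouse left out, from 0.1475 to 0.9873 percentage points in males, from -1.046 to -0.284 in females, from -0.6513 to 0.1885 for females against males in Ctrl mice and from -1.854 to -1.083 in cKO mice. Replicate numbers come from the sample titles. Deviations of same-numbered Ctrl and cKO mice had mean correlations of -0.0259 in males and 0.118 in females. Single pairs ran from -0.163 to 0.088 and from -0.0969 to 0.404. Differently numbered mice had means of 0.0043 in males and -0.0186 in females. With pairs under 0.1 in each sex, the numbers were not taken to pair the mice. Whether some same-numbered mice shared a litter or batch was not tested. The fit with the replicate block called 0 mitochondrial genes in each comparison, and 7, 15 and 15 nuclear genes in the order above. By depth alone, a transfer RNA level under 3 counts per library was not detectable. Whether the library method or the counting set those zeros was not tested.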
